A study of Mus musculus with 4 samples.

Results

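The genes described here are named as proteins of the mouse cytosolic ribosome or as their paralogs. They were chosen by name: a gene counted when its biotype was protein coding and its symbol was Rpl or Rps, with an optional p, followed by a number and at most a trailing a, l or x and 1 further digit. The rule found 82 genes among the 35998 genes of the count tables, on 19 chromosomes. By symbol, 31 belong to the small subunit and 51 to the large subunit. Whether each product, such as that of Rpl7l1, is part of the mature ribosome was not examined. It used no measured value. A list of 5 further genes, such as Rpsa and Rack1, whose products are also parts of the ribosome or made as fusions with one of its proteins, falls outside the rule and was kept for comparison.

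The cells came from the hypothalamus of C57BL/6 mice that carried Lepr-cre and Rosa-LSL-tdTomato, so that a cell in which the leptin receptor promoter had been active at any time was red, and red cells were sorted into 384-well plates for CEL-seq2. Fed plates 1, 2 and 3 held cells of fed mice and the fasted plate held cells of mice without food for 24 h. All groups shared the strain and both alleles. How many animals there were, and of which age and sex, is not given in the sources used here. Since nothing states that plates came from separate animals, a p-value here speaks to the spread among these plates only, which may be technical.

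Wells with at least 1000 transcripts and under 30% mitochondrial transcripts were kept, 356, 322 and 331 of fed plates 1 to 3 and 270 of the fasted one. Their totals were 5535041, 4402407, 4709438 and 5098279 transcripts. A Lepr transcript was found in 22.7 to 25.4% of the kept cells of each plate (exact Clopper-Pearson intervals at 95% ran from 18.2 to 30.4%). Cells were grouped into classes without use of the ribosomal protein genes, and a class name ending in "-like" rests on marker genes alone. Summed markers of AgRP neurons ran from 8906 to 15574 CPM (transcripts scaled to 1000000 in all) in AgRP-like neurons and from 745 to 1607 CPM in the other neurons.

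The small subunit of a ribosome reads the messenger RNA, and the large subunit joins the amino acids. A stalk on the large subunit, made of Rplp0, Rplp1 and Rplp2, calls in the translation factors. Messenger RNAs of ribosomal proteins commonly begin with a run of pyrimidines led by a C, the terminal oligopyrimidine tract, through which the kinase complex mTORC1 controls how well they are translated. AgRP neurons of the arcuate nucleus carry the leptin receptor and drive feeding, and tanycytes line the ventricle next to them.

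The bases around the annotated gene starts are shown for 6 genes whose values are described further on, since the tract that marks this gene class begins there. RefSeq promoter sequences (GRCm38.p6) matched 62 of the 82 genes. Each line gives 10 bases before and 20 bases from the annotated start, 5′ to 3′ on the gene's strand. Capitals mark a C followed by 4 or more C or T. The C and the first 4 bases after it had to lie between 5 bases before and 10 bases after the annotated start.
Rpl4, chr9:64173377-64173406, plus strand: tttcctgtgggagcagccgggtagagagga
Rplp0, chr5:115559457-115559486, plus strand: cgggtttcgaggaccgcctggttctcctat
Rplp2, chr7:141447641-141447670, plus strand: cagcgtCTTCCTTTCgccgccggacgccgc
Rps24, chr14:24490668-24490697, plus strand: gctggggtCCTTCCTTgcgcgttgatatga
Rpl22, chr4:152325716-152325745, plus strand: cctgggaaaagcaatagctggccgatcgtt
Rpl22l1, chr3:28805498-28805527, plus strand: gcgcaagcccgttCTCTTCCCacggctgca

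Such a run, read on the gene's own strand, was present in 28 of the 62 matched genes, or 45.2%. It was present in 4989 of 27025 RefSeq promoters, or 18.5%. The genes with a run had a median level of 92.2 CPM (n = 28) and those without had 64.3 CPM (n = 34), which is given as a description. A missing run says only that these letters are not at the annotated start.

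Levels of the 82 genes spanned a wide range. CEL-seq2 counts each molecule once by its 3′ end, so the levels were not divided by transcript length. Across the kept cells, 39 genes had a mean over 100 CPM and 12 a mean under 10 CPM, with a median of 80.3 CPM. The 5 most abundant gave 24.7% of all transcripts of the 82 genes. Rpl4, a large-subunit protein that lines the exit tunnel, alone gave 9.20%, with 1493, 1142 and 939.6 CPM (fed plates 1 to 3) and 1868 CPM (fasted). Rplp1 had 744, 614 and 578 CPM (fed plates 1 to 3) and 549 CPM (fasted). Rpl23 and Rps20 were also among the first 5, with means of 536 and 525 CPM. On every plate Rpl4 stood first, and the fasted plate held its highest value.

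At the low end stood genes whose proteins are no less part of each ribosome. Rps6, the small-subunit protein that S6 kinase phosphorylates, had 2.53, 2.73 and 1.91 CPM (fed plates 1 to 3) and 1.57 CPM (fasted). Rpl29 had a mean of 1.19 CPM. The 3 lowest were copies known from other tissues in mice: Rpl39l and Rpl10l from testis and Rpl3l from muscle. Rpl39l gave 2, 8, 2 and 0 transcripts (fed plates 1 to 3, then fasted), Rpl3l 3, 1, 0 and 0, and Rpl10l gave 0, 0, 1 and 0.

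Ribosomal protein genes have many processed pseudogenes, and a read that matches several genes can be dropped or assigned to either, so shared sequence was measured. Of the 82 genes, 79 had at least 1 stretch of 50 bases that also occurs in the transcript of an annotated pseudogene, and Rpl7a shared one with 119 pseudogenes. The median gene shared 54.5% of its 50-base windows with another gene. Genes that shared up to 25% had a median level of 149.5 CPM (n = 13), those between 25 and 50% had 208.6 CPM (n = 22), those between 50 and 75% had 131 CPM (n = 23), and those over 75% had 20.8 CPM (n = 24). Spearman's rho between level and shared share over the 82 genes was -0.38, -0.36, -0.37 and -0.35 (fed plates 1 to 3, then fasted), as a description of genes that share plates and cells. The handling of reads with several matches by the authors is not stated in the labels, and its part in these levels was not tested. In addition, 33 of the genes overlap another gene on the same strand and 23 one on the opposite strand.

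**Figure D1:**
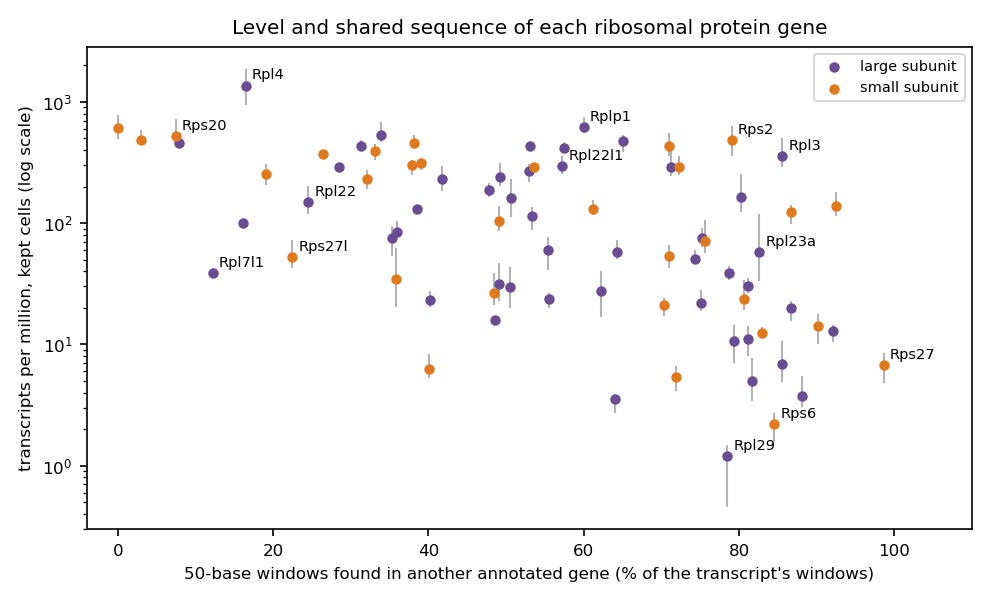
Level of each ribosomal protein gene in kept cells (mean over the 4 plates, CPM, log axis) against the share of its 50-base transcript windows that occur in another annotated gene. Each point is 1 gene, lines give the range over the plates, and the 3 lowest genes are not drawn; Rps27, at 98.6% shared, lies near the bottom right.

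Rps27 and Rps27l show this within a pair of paralogs. Both code for a small-subunit protein of the same length, with 255 coding bases including the stop, and they differ at 61 of them (76.1% identity). The last 75 coding bases (GRCm38, GENCODE transcripts) are shown since the pair can be told apart there, with the differences in capitals; 16 bases differ in this stretch.
Rps27, gene at chr3:90212522-90213651, minus strand: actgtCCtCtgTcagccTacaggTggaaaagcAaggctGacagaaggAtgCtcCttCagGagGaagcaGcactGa
Rps27l, gene at chr9:66946086-66949516, plus strand: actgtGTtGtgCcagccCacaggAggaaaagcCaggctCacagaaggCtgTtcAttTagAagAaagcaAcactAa
Rps27 had 8.49, 4.77 and 8.49 CPM (fed plates 1 to 3) and 5.10 CPM (fasted), while Rps27l, a target of p53, had 72.3, 51.6, 42.3 and 43.2 CPM. The paralog was higher on every plate. Rps27 shared 98.6% of its windows with other genes and Rps27l 22.4%, so the low count of Rps27 and the loss of its reads to 8 pseudogenes cannot be told apart here.

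The 82 genes together took 1.65% (exact 95% interval 1.64 to 1.66), 1.41% (1.40 to 1.43) and 1.31% (1.30 to 1.32) of the transcripts of the fed plates and 1.54% (1.53 to 1.55) of those of the fasted plate. Intervals cover counting error only. The fasted plate thus fell between the fed plates. Their share differed more between cell classes than between plates. AgRP-like neurons had 1.89% ± 0.0634 (SD, n = 4 plates), the other neurons 1.38% ± 0.143 (n = 4), endothelial-like cells 1.49% ± 0.151 (n = 4), cells like the vascular and leptomeningeal cells (VLMC-like) 1.10% ± 0.0596 (n = 4) and tanycyte-like cells 1.07% ± 0.0684 (n = 4). Oligodendrocyte-like cells had 0.783% ± 0.100, oligodendrocyte precursor-like cells 0.568% ± 0.0473 and astrocyte-like cells 0.359% ± 0.0831 (n = 3 plates each). The plates of AgRP-like neurons (1.83 to 1.98%) did not overlap those of the other neurons (1.24 to 1.505%), whereas VLMC-like (1.03 to 1.16%) and tanycyte-like cells (0.983 to 1.15%) overlapped. Microglia or macrophage-like cells, at 1.71% ± 0.681 (n = 3), spread from 1.15 to 2.46% and were not separate from the neurons or endothelial-like cells. Cells like those of the pars tuberalis (pars tuberalis-like, 41 cells on 2 plates) had 1.59% on fed plate 1 and 2.11% on the fasted plate. The fasted value lay above every plate of AgRP-like neurons. These shares are given without a test.

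Small-subunit genes gave 42.4% ± 2.01 (SD, n = 4 plates) of the ribosomal protein transcripts in all kept cells, 41.7% ± 2.28 in AgRP-like neurons, 44.5% ± 2.89 in endothelial-like cells and 37.97% ± 4.61 in oligodendrocyte precursor-like cells (n = 3 plates). In all kept cells this share was 44.1, 43.0 and 42.9% (fed plates 1 to 3) and 39.5% (fasted). In AgRP-like neurons it was 42.9, 43.0 and 42.5% against 38.3%, in the other neurons 42.5, 42.9 and 42.4% against 39.8%, and in tanycyte-like cells 44.0, 42.8 and 42.0% against 39.4%. The fasted plate lay below the fed plates in these 3 classes, and in VLMC-like cells, at 43.4% against 43.3 to 45.6%, it lay among them. With each cell thinned to 2000 transcripts, AgRP-like neurons showed a median of 22 to 25 of the 82 genes per cell on the 4 plates and astrocyte-like cells 5 to 7 on 3 plates. Without thinning the medians were 58 to 68 and 11 to 17.5 genes. Thinning left out 3 of 196 AgRP-like neurons and 10 of 109 astrocyte-like cells as too shallow.

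**Figure D2:**
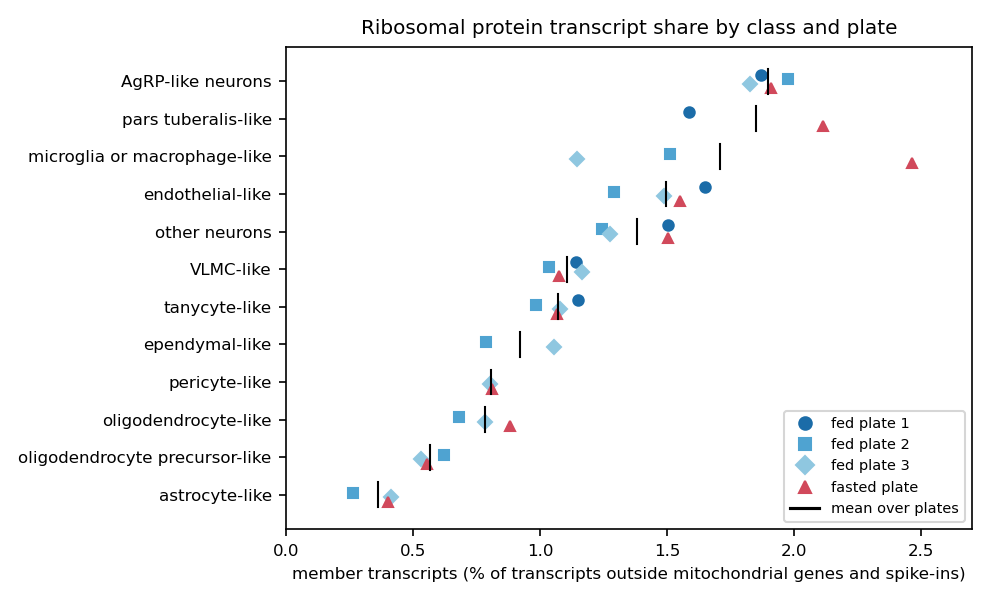
Share of transcripts, in percent and outside mitochondrial genes and spike-ins, taken by the ribosomal protein genes in each class. Each point is 1 plate with at least 5 cells of the class, and bars are means over plates; AgRP-like neurons lie between 1.83 and 1.98% and astrocyte-like cells between 0.264 and 0.413%.

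Differences between classes were tested gene by gene on counts summed per plate, with the plate as a block, by the quasi-likelihood test of edgeR, with Benjamini-Hochberg adjustment over all genes fitted. The levels in these comparisons are CPM after scaling by the trimmed mean of M-values (TMM) and so differ somewhat from the plain CPM given for all kept cells. The comparisons share cells and are set side by side only. A gene is said to rise or fall where its adjusted p was under 0.05, and folds are log2 values with their standard error (SE). Shares of all genes are at this adjusted level, so counts at an unadjusted p have no background.

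Neurons (386 cells) held more of many ribosomal protein transcripts than non-neuronal cells (814 cells). Of the 75 genes fitted, 36 were higher in neurons and 2 lower. Over all 14105 genes fitted, 27.9% were higher and 29.1% lower, a background that includes the genes that define the classes. The median log2 fold of the 75 genes was 0.54 and that of all genes 0.00. Rpl22l1, the paralog of Rpl22, had 487, 451, 328 and 405 CPM in neurons (fed plates 1 to 3, then fasted) against 135, 148, 119 and 96.0 CPM in non-neuronal cells. The groups did not overlap, and the log2 fold was 1.75 ± 0.16 (SE; edgeR adjusted p = 5.56e-05). Rpl3, a protein next to the peptidyl transferase centre, ranged from 384 to 721 CPM in neurons and from 113 to 287 CPM elsewhere (log2 fold 1.43 ± 0.18; edgeR adjusted p = 0.000303). Rpl27a and Rpl21 rose by 1.26 ± 0.14 and 1.22 ± 0.19. Rpl24, the gene nearest the median, had a log2 fold of 0.54 ± 0.40 that did not pass (edgeR adjusted p = 0.28).

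Rpl22 and Rps27l went the other way. Rpl22 had 97.8 to 128 CPM in neurons and 158 to 319 CPM in non-neuronal cells, with no overlap (log2 fold -0.80 ± 0.17; edgeR adjusted p = 0.0043). Rps27l had 30.8 to 55.5 CPM in neurons and 48.8 to 98.7 CPM outside them (log2 fold -0.68 ± 0.17; edgeR adjusted p = 0.0091, and 0.0621 without fed plate 3). Its sides overlapped across plates, but it was lower in neurons on 4 of 4 plates. Scaled to the sum of the 82 genes in place of all genes, 8 genes passed, 3 higher and 5 lower. Among them Rpl22l1 was higher by 1.19, Rpl3 by 0.88 and Rpl27a by 0.72, and Rpl22 had -1.36, Rps27l -1.23 and Rplp0 -0.99. Neurons were the deeper cells, with plate medians of 25181 to 58439.8 transcripts against 5565 to 8879 in non-neuronal cells, and the part of depth in these folds was not tested beyond thinning, under which 29 genes passed.

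Of the 30 initiation and elongation factors fitted, 17 were higher in neurons and 3 lower, and of the 75 proteins of the mitochondrial ribosome 42 were higher and 1 lower. Ribosome assembly factors were higher for 11 of 24 and lower for 2, and genes of mTORC1 and translation control were higher for 3 of 21 and lower for 8. Of the ribosomal proteins outside the symbol rule, 4 of 5 were higher. Heat shock and immediate early genes were higher for 2 of 10, Hsph1 among them (2.16 ± 0.19), and lower for 4, with Ier2 at -4.28 ± 0.28 and Atf3 at -2.68 ± 0.33. Their sum was 2376 to 3331 CPM against 2390 to 6677 CPM, and its part in the folds was not tested.

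**Figure D3:**
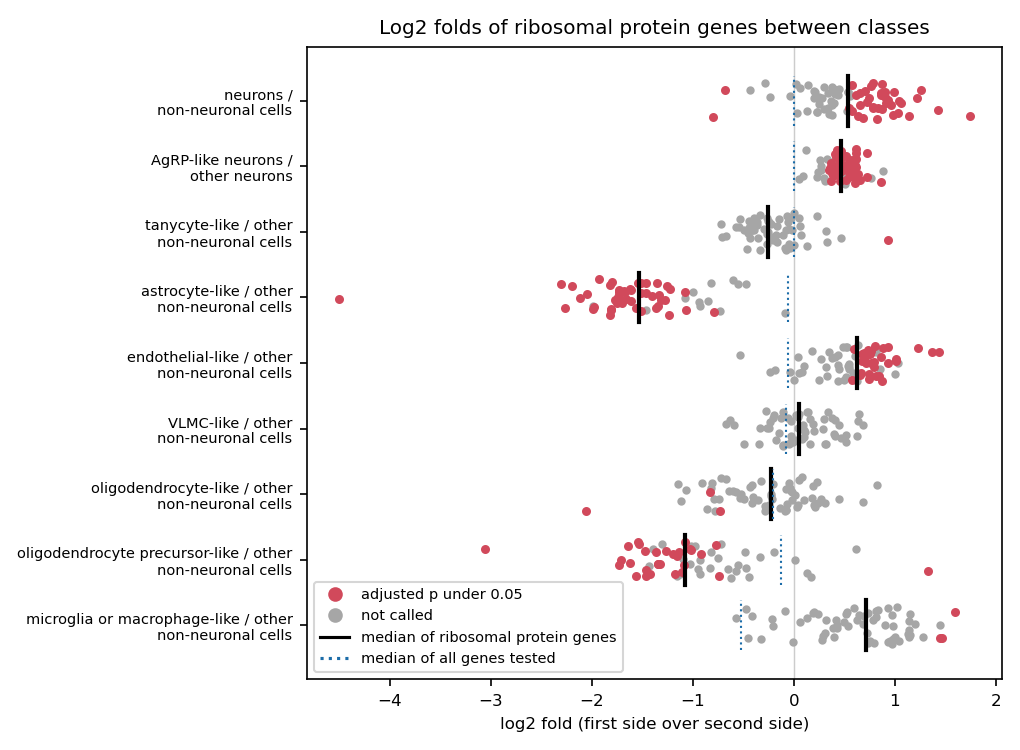
Log2 fold of each fitted ribosomal protein gene in 9 comparisons of classes (first side over second side). Each point is 1 gene, red where the edgeR adjusted p was under 0.05, with solid bars at the median of these genes and dotted bars at that of all genes; in AgRP-like against other neurons all fitted genes lie above 0, and in astrocyte-like cells all lie below 0.

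Within neurons, AgRP-like cells (196 cells) stood above the other neurons (190 cells). Of 72 genes fitted, 47 were higher and 0 lower, where 6.8% of all 11729 genes fitted were higher and 8.21% lower. DESeq2 called 32, and 60 had an unadjusted p under 0.05. All 72 log2 folds were above 0, from 0.05 to 0.88, with a median of 0.47 (all genes 0.01), a fold of 1.38. Rps15a, nearest the median, rose by 0.47 ± 0.12 (edgeR adjusted p = 0.013).

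Of the genes that passed, the stalk base protein Rplp0 moved most. It had 249.6, 255, 220.4 and 303 CPM in the AgRP-like class (fed plates 1 to 3, then fasted) against 165, 133, 129 and 135 CPM in the other neurons (log2 fold 0.87 ± 0.11; edgeR adjusted p = 2.84e-05). No plate overlapped. Rplp1 rose by 0.72 ± 0.09, with 712 to 891 CPM against 452 to 558 CPM, and Rplp2 by 0.47 ± 0.10, with 473 to 722 CPM against 406 to 509 CPM. Differences among the stalk proteins were not tested. Scaled to the sum of the 82 genes Rplp0 was the 1 gene that passed (log2 fold 0.37; edgeR adjusted p = 0.0299), while Rplp1 had 0.22 and Rplp2 -0.03. Rpl23a, which meets the signal recognition particle at the tunnel exit, rose by 0.73 ± 0.16 in AgRP-like neurons, and Rps9 rose by 0.66 ± 0.10. Rplp0 was not higher in neurons as a whole, with 158 to 235 CPM against 215 to 432 CPM in non-neuronal cells (log2 fold -0.44 ± 0.17; edgeR adjusted p = 0.063).

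Beside the ribosomal proteins, 4 of the 5 outside the rule rose in AgRP-like neurons, Rpsa by 1.04 ± 0.24. Of 29 initiation and elongation factors 8 rose and 0 fell, Eef2, which moves the ribosome along, by 0.72 ± 0.08. By contrast 1 of 75 mitochondrial ribosomal proteins, 2 of 24 assembly factors and 2 of 20 genes of mTORC1 and translation control rose. Heat shock and immediate early genes also moved with the class: 8 of 10 were higher and their sum was 2903 to 4364 CPM against 1599.7 to 2508 CPM, and its part in the result was not tested. Without the plate block 11 genes passed, thinned to 2000 transcripts 10, and without fed plate 2 the count was 27.

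Among non-neuronal classes astrocyte-like cells (109 cells on 3 plates) stood lowest. Of 60 genes fitted, 0 were higher and 47 lower than in the remaining non-neuronal cells, where 13.3% of all genes fitted were higher and 15.4% lower. DESeq2 called 43. The median log2 fold was -1.53 (all genes -0.06). Rplp0 had 74.9 and 44.2 CPM on fed plates 2 and 3 and 51.6 CPM on the fasted plate, against 229, 248 and 304 CPM (log2 fold -2.26 ± 0.30; edgeR adjusted p = 6.12e-08). Rpl26 had a log2 fold of -2.30 ± 0.32 and Rps25 one of -2.20 ± 0.42, and both were lower on 3 of 3 plates. Rpl23, nearest the median, had 74.9, 133 and 162 CPM against 279.7, 336 and 462 CPM.

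The heat shock list moved with the astrocyte-like class as well, with 9 of 10 genes lower and a sum of 517 to 755 CPM against 2625 to 5692 CPM. Initiation and elongation factors fell for 10 of 29, with Eef1a1 at 174.7 to 246 CPM against 667 to 1004 CPM, while mitochondrial ribosomal proteins were higher for 3 of 73 and lower for 2. Scaled to the sum of the 82 genes, 6 genes passed, Rplp0 (-0.80) and Rpl26 (-0.86) among them.

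Oligodendrocyte precursor-like cells (29 cells on 3 plates) were lower too. Of 59 genes 29 were lower and 1 higher, against 14.5% and 10.3% of all genes fitted, with a median of -1.08 (all genes -0.12). Rps20 had 99.3, 185 and 115 CPM against 359, 443 and 511 CPM (log2 fold -1.73 ± 0.28; edgeR adjusted p = 6.96e-05). Rpl39 fell by 1.64 ± 0.43 on the log2 scale. Rps28 had -1.71 ± 0.57 (edgeR adjusted p = 0.0296), a call lost in 6 of 9 alternatives, among them leaving out any 1 plate (adjusted p = 0.0900 to 0.142). Rpl38 gave 2 transcripts in this class. Rpl13 was the exception, with 314, 213 and 470.3 CPM against 76.7, 111 and 229 CPM (log2 fold 1.32 ± 0.27; edgeR adjusted p = 0.000795). It was higher on 3 of 3 plates, and 2.28 higher when scaled to the sum of the 82 genes. Rps9, nearest the median, had -1.08 ± 0.30. The heat shock list was lower for 6 of 10 genes in these cells.

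Endothelial-like cells (151 cells) stood on the other side. Of 69 genes 31 were higher and 0 lower, where 16.6% of all genes fitted were higher and 20.8% lower, with a median of 0.63 (all genes -0.06). Rpl38, known in mouse embryos for its part in translating Hox transcripts, had 95.4, 92.9 and 147 CPM (fed plates 1 to 3) and 77.4 CPM (fasted), against 36.3, 29.7, 44.2 and 38.2 CPM (log2 fold 1.44 ± 0.27; edgeR adjusted p = 0.000356). The sides did not overlap. Rps24 rose by 1.23 ± 0.21, Rpl31 by 1.37 ± 0.42 (edgeR adjusted p = 0.148 without the fasted plate) and Rps20 by 1.01 ± 0.22, while Rpl17, nearest the median, had 0.63 ± 0.38 and did not pass.

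The count for endothelial-like cells moved with the setting: 14 genes with plain totals, 17 with DESeq2, 2 after thinning and 15 without fed plate 3. On fed plate 1, 57 of the 90 endothelial-like cells fell in a cluster found on that plate alone, and without that plate 24 genes were higher. The heat shock list was higher for 7 of 10 genes in this class, with a sum of 3449.9 to 7744 CPM against 2293 to 5095 CPM, and hemoglobin and other erythrocyte markers reached 21419.5 CPM in its fasted-plate cells. Their part was not tested.

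The remaining classes moved few of the genes. In tanycyte-like cells (234 cells) 1 of 63 genes was higher, Rpl22l1, and 0 were lower, against 11.5% and 14.1% of all genes fitted. It had 236, 238, 170 and 159 CPM against 121, 105, 98.7 and 92.9 CPM (log2 fold 0.93 ± 0.18; edgeR adjusted p = 0.00628), with no overlap. In VLMC-like cells 0 of 59 passed by edgeR and 0 by DESeq2, against 7.14% higher and 9.69% lower of all genes, and 1 had an unadjusted p under 0.05. Oligodendrocyte-like cells (49 cells) had 3 of 62 lower and 0 higher, against 19.8% and 11% of all genes: Rps20 with 190, 249 and 248 CPM against 307, 386 and 493 CPM, Rpl41 with a log2 fold of -0.73 ± 0.29, and Rpl12, which rests on 4 transcripts. With plain totals 15 were lower, and without the fasted plate 0. The heat shock list was lower for 6 of 10 genes in this class, with Atf3 at -5.25 ± 0.65 and a sum of 712 to 803 CPM against 2477 to 5788 CPM, and for 5 of 10 in tanycyte-like cells, with a sum of 1601 to 3447 CPM against 2710 to 7335 CPM. Its part was not tested.

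Microglia or macrophage-like cells (29 cells) had 3 of 64 higher and 0 lower, against 7.72% and 11.2% of all genes, among them Rps24 (log2 fold 1.60 ± 0.49) and Rplp1 (1.46 ± 0.47). Rplp1 had 1269 and 924 CPM (fed plates 2 and 3) and 2298 CPM (fasted) against 483, 560.1 and 501 CPM. The median log2 fold was 0.71 for the 64 genes and -0.52 for all genes, and the heat shock sum was 14599.7 to 28728 CPM against 1819 to 4413 CPM. Leaving out fed plate 2, fed plate 3 or the fasted plate left 0, 1 and 0 of the genes past the threshold.

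Rpl22 and Rpl22l1, which code for alternative copies of one large-subunit protein, changed places between classes. In AgRP-like neurons Rpl22l1 had 508, 547 and 394 CPM (fed plates 1 to 3) and 409 CPM (fasted), and Rpl22 had 134, 133, 123 and 115 CPM, a ratio of 3.20 to 4.11. The other neurons had a ratio of 3.28 to 3.87 and tanycyte-like cells 1.09 to 1.68. In endothelial-like cells Rpl22 led, with 325, 311, 262 and 204 CPM against 82.6, 40.1, 117 and 99.6 CPM of Rpl22l1, a ratio of 0.129 to 0.489. VLMC-like cells had 0.454 to 0.774 and astrocyte-like cells 0.556 to 0.667. Every plate with at least 5 cells had Rpl22l1 ahead in neurons and tanycyte-like cells and behind in endothelial-like, VLMC-like, astrocyte-like and oligodendrocyte-like cells. In small classes Rpl22l1 was also ahead in pericyte-like (1.33 to 2.00, 2 plates, 19 cells) and smooth muscle-like cells (1.20, 1 plate, 7 cells). It was behind in pars tuberalis-like, microglia or macrophage-like and oligodendrocyte precursor-like cells. Ependymal-like cells had 0.529 to 1.00 on 2 plates. Several of these ratios rest on few transcripts. A single transcript amounted to 31.6 CPM (fed plate 3) and 20.9 CPM (fasted) in pericyte-like cells and 23.3 CPM in smooth muscle-like cells (fed plate 3). In endothelial-like cells of fed plate 2, where Rpl22l1 had 40.1 CPM, 2 transcripts amounted to 20.1 CPM. In astrocyte-like cells of fed plate 2, 3 transcripts amounted to 22.5 CPM.

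**Figure D4:**
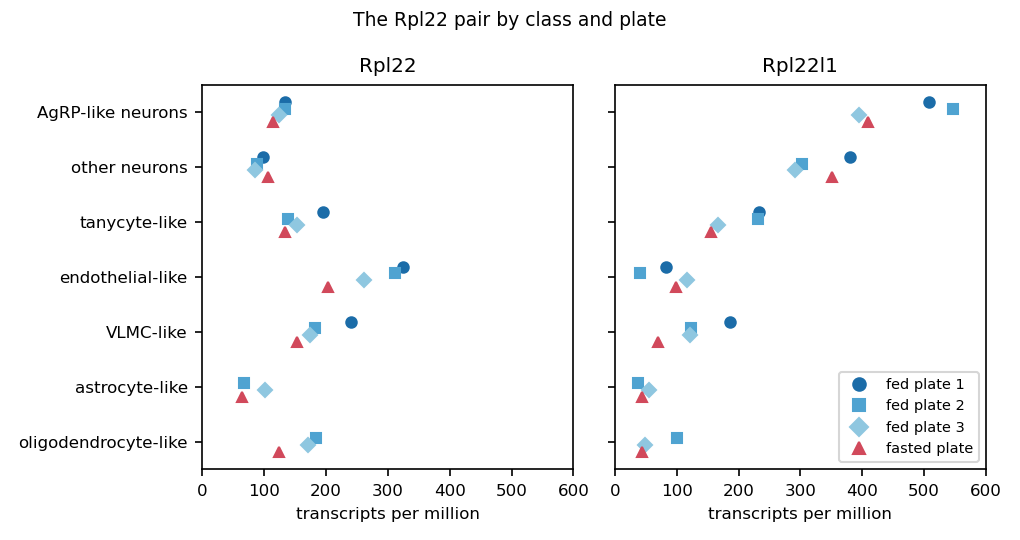
Levels of Rpl22 and Rpl22l1 by class, in CPM of plain totals. Each point is 1 plate; Rpl22l1 runs from 292 to 547 CPM in both neuron classes, and Rpl22 from 204 to 325 CPM in endothelial-like cells.

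The other pairs of parent and paralog kept their order in all kept cells. Rpl7 had 127, 108 and 87.7 CPM (fed plates 1 to 3) and 135 CPM (fasted), and Rpl7l1 had 42.5, 37.5, 35.9 and 38.7 CPM. In AgRP-like neurons Rpl7 rose by 0.37 ± 0.12 (edgeR adjusted p = 0.040), and Rpl7l1 had 0.43 ± 0.17 and did not pass. Rpl3, Rpl10 and Rpl39, whose copies Rpl3l, Rpl10l and Rpl39l were close to 0, had means of 357, 12.9 and 99.3 CPM.

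The genes were also compared between deep and shallow cells of 1 class. Cells of each class and plate were split at their median number of transcripts outside the 82 genes. None passed in any of 6 classes (0 by edgeR, 0 by DESeq2). The genes fitted numbered 69 in AgRP-like neurons, where 0% of all genes were higher in deep cells and 0.0319% lower, and 64 in the other neurons, with 0.318% and 0.265%. They numbered 43 in the tanycyte-like class, with 0.453% and 0.151% of all genes, and 10 in the astrocyte-like class, with 0.0506% and 0%. The endothelial-like class had 43 and the VLMC-like class 24, with 0% of all genes either way in both. In AgRP-like neurons 24 of the 69 genes had an unadjusted edgeR p under 0.05, against 5 in the other neurons and 0 in the remaining classes. The shares of all genes above are at an adjusted p, so these unadjusted counts have no background here. The median log2 fold in deep cells was -0.21 in AgRP-like neurons and -0.05 in the other neurons. It was -0.08 in tanycyte-like, -0.50 in astrocyte-like, 0.10 in endothelial-like and -0.03 in VLMC-like cells. Across 34 combinations of class and plate, Spearman's rho between the share of these genes and depth outside them ran from -0.65 to 0.73 with a median of -0.08, and 19 were below 0, as a description of cells that share a plate.

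On the fasted plate 1.91% of the transcripts of AgRP-like neurons came from the 82 genes, within the 1.83 to 1.98% of the fed plates, and single genes stood apart. With 1 fasted plate, plate and feeding cannot be told apart, the spread comes from the fed plates, and the fasted plate is assumed to vary like them. Sex markers also moved with it: Xist without any Y-linked transcript was seen in 228 kept cells of the fasted plate and the reverse in 0, whereas each fed plate held both kinds. AgRP-like neurons numbered 25 with fasting and 171 without, and 6 of 76 genes were higher and 0 lower, where 3.02% of all 13103 genes fitted were higher and 1.85% lower. The median log2 fold was 0.04 (all genes -0.02). Rpl7l1, nearest the median, had 0.03 ± 0.28. Different clusters held most AgRP-like cells of fed plate 1, of the other fed plates, and of the fasted one.

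Rpl23a rose most. It had 38.9, 51.5 and 68.1 CPM (fed plates 1 to 3) against 158 CPM (fasted), a log2 fold of 1.62 ± 0.24 (edgeR adjusted p = 6.64e-05). Rps29 had 27.7, 26.4 and 37.2 CPM against 73.2 CPM (1.30 ± 0.27; edgeR adjusted p = 0.00348). Rpl13 had 168, 168 and 167 CPM against 334 CPM (0.99 ± 0.20; edgeR adjusted p = 0.00213). All 3 lay above every fed plate. Rps28 rose by 0.87 ± 0.21, and Rpl3 and Rpl34 rose by 0.73 each. DESeq2 called 3 of the genes, and after thinning to 2000 transcripts 0 passed (Rpl23a 1.75, adjusted p = 0.6). Without fed plate 1 the count was 10, and scaled to the sum of the 82 genes it was 5. The heat shock genes Hspa1b, Hspa1a and Dnajb1 fell in the same comparison, 4 of 10 of that list in all, and median transcripts per AgRP-like cell were 65039 on the fasted plate against 25975 to 33199 on the fed plates. The part of either was not tested. Among Xist-only AgRP-like cells, a comparison chosen after seeing the data, Rpl23a had 17.7, 52.6 and 65.2 CPM (7, 41 and 6 cells of fed plates 1 to 3) against 148 CPM (22 cells, fasted). Rpl13 had 195, 165 and 112 CPM against 322 CPM, and Rps29 29.6, 26.7 and 27.9 CPM against 69.3 CPM. The fasted plate stayed above each fed plate for all 3 genes in these cells, as it did for Rps28, Rpl3 and Rpl34. These 6 genes were picked by their calls in the whole class, and 22 of its 25 fasted cells are in this set. Their order here is thus no separate support, and the part of sex was not tested. Some fed values rest on few transcripts: 3, 63 and 14 of Rpl23a and 5, 32 and 6 of Rps29 (fed plates 1 to 3). Rpl13 had 33, 197 and 24.

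**Figure D5:**
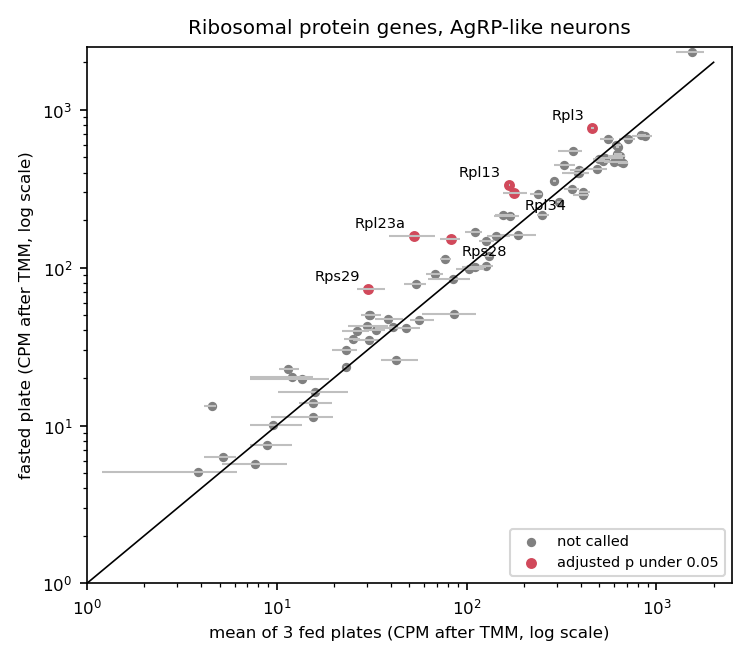
Fasted-plate level of each ribosomal protein gene in AgRP-like neurons against the mean of the 3 fed plates (CPM after TMM, log axes). Each point is 1 gene, red where the edgeR adjusted p was under 0.05, short horizontal lines give the range of the fed plates, and the diagonal marks equal levels; Rpl23a lies farthest above it among those that passed, at 158 CPM.

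Rpl23a was high on the fasted plate in some other classes too, but not in all. In plain CPM, oligodendrocyte-like cells had 33.5 and 73.0 CPM (fed plates 2 and 3) against 40.6 CPM (fasted, 15 transcripts). Pericyte-like cells had 31.6 CPM (fed plate 3) against 20.9 CPM (fasted), with 1 transcript each. The levels that follow are again after TMM. In the other neurons it had 26.8, 23.1 and 41.2 CPM against 115 CPM (log2 fold 1.88 ± 0.30; edgeR adjusted p = 0.0327) and was the 1 of 74 genes that passed, with 0 lower, against 0.111% higher and 0.0318% lower of all genes fitted. In tanycyte-like cells it had 26.9, 14.9 and 30.7 CPM against 90.5 CPM (1.89 ± 0.43; edgeR adjusted p = 0.00166). There 2 of 63 genes were higher and 1 lower, against 1.94% and 1.15% of all genes. Rpl3 was the other higher gene (0.88 ± 0.28), and Rps2, near the entry of the messenger RNA, had 555, 433 and 452 CPM against 251 CPM (-0.93 ± 0.29; edgeR adjusted p = 0.0419). Both lost the call without fed plate 2 or without fed plate 3. Heat shock genes fell here too: Hspa1b by 3.04 ± 0.33 and Hspa1a by 1.81 ± 0.28 on the log2 scale in the other neurons, and Hspa1b by 1.49 ± 0.40 in tanycyte-like cells. Their part was not tested.

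In endothelial-like cells Rpl23a had a log2 fold of 2.49 that did not pass (edgeR adjusted p = 0.121), and 0 of 54 genes passed by edgeR or DESeq2, against 0.0155% higher and 0% lower of all genes, while 3 had an unadjusted p under 0.05. Astrocyte-like cells, with 2 fed plates, had 1 of 32 genes higher and 0 lower, against 0.376% and 0.225% of all genes: Rpl4, at 313 and 513 CPM against 1114 CPM (1.41 ± 0.26; edgeR adjusted p = 8.44e-05), which DESeq2 did not call. In VLMC-like cells 0 of 46 passed by edgeR or DESeq2, against 0.453% and 0.604% of all genes, and 1 had an unadjusted p under 0.05.

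Over all kept cells Rpl23a had 33.2, 35.0 and 42.9 CPM (fed plates 1 to 3) and 119 CPM (fasted), 3.20 times the fed mean, and was seen in 34.8, 29.5 and 32.3% of the fed cells and 49.3% of the fasted cells. These rest on 184, 154, 202 and 605 transcripts. Its transcript shares 82.6% of its windows with other genes, 28 pseudogenes among them, so a read from a pseudogene and one from Rpl23a cannot always be told apart. Of the 79 genes with a mean of at least 1 CPM in all kept cells, 38 lay above the range of the fed plates on the fasted plate and 19 below it. Among all 18936 genes at that level 29.4% lay above and 27.1% below.

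Sex markers differed between plates. Xist without any Y-linked transcript was seen in 24, 166, 139 and 228 cells (fed plates 1 to 3, then fasted), and the reverse in 269, 81, 98 and 0. Xist-only and Y-only cells were compared within fed plates 2 and 3, with 1 residual degree of freedom, and fed plate 1, with its 24 Xist-only cells, was not used. None of 70 genes passed in neurons (0 by edgeR, 0 by DESeq2, 4 at an unadjusted p under 0.05) and none of 60 in non-neuronal cells (0, 0 and 5), where all genes gave at most 0.0911% and 3.1% higher and 0.0456% and 0.691% lower. The median log2 fold, Xist-only over Y-only, was -0.21 in neurons, with 63 of 70 below 0, and -0.21 in non-neuronal cells, with 48 of 60 below 0, while all genes had a median of 0.00 in both.

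Rps4x, Rpl10, Rpl36a and Rpl39 lie on the X chromosome. Rps4x had 355, 272 and 249.6 CPM (fed plates 1 to 3) and 277 CPM (fasted), and log2 folds of 0.02 ± 0.19 in neurons and -0.21 ± 0.24 in non-neuronal cells between Xist-only and Y-only cells. Rpl39 had 100.3, 95.0, 107 and 94.8 CPM and log2 folds of -0.44 ± 0.21 and -0.53 ± 0.29. Rpl10 had 13.6, 10.4, 13.0 and 14.5 CPM and -0.01 ± 0.47 in neurons. Rpl36a, at 5.42, 10.7, 6.37 and 4.90 CPM, was too low to be fitted between these cells, and rose in neurons against non-neuronal cells by 0.93 ± 0.33 (edgeR adjusted p = 0.043), a call lost without any 1 plate. In AgRP-like neurons Rps4x rose by 0.41 ± 0.09 (edgeR adjusted p = 0.0689 without fed plate 3).

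Other genes followed the sum of the 82 genes over 39 class and plate sums of at least 5 cells, among 12101 genes with a mean of at least 10 CPM. The points share plates, so Pearson's r of log2 CPM is a description. The highest were Eef1a1, the elongation factor that brings transfer RNA, at 0.93, Gm45713 at 0.93, Gm26377 and Gm24276 at 0.90 each, Gm43821 at 0.87 and Rack1 at 0.86. They were followed by Eif3f and Cox7a2l at 0.79 each, Eef1b2 at 0.74 and Gch1 at 0.73. On the same strand Gm45713 overlaps Rpl13a, Gm26377 overlaps Eef1a1 and Gm43821 overlaps Rpl21-ps10, a pseudogene of Rpl21, so their reads may not be separate. The median r over all 12101 genes was 0.06, over 29 initiation and elongation factors 0.33, over 74 mitochondrial ribosomal proteins 0.08, over 24 assembly factors 0.15, over 20 genes of mTORC1 and translation control 0.01, and over 10 heat shock and immediate early genes 0.55. Each of 69 ribosomal protein genes was also set against the sum of the others. The median r was 0.67, from 0.12 for Rpl7l1 to 0.95 for Rpl23.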

How the data were processed

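Single cells were measured by CEL-seq2 with a 6-base UMI. The deposited values are expected counts, UMIs per gene and well corrected by the authors for UMI collisions (4096 possible UMIs) with no normalization, as the values show; the submitters' processing notes name Trim Galore, STAR and the build mm10. The UMI counter is not given in the sources used here, nor is strand use. Of 35998 gene identifiers, 35961 were matched to GENCODE vM21.

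The members and lists were chosen with earlier results of these data known. Wells of at least 1000 transcripts and under 30% mitochondrial share were kept, 1279 of 1536. All plates share the same 384 well barcodes by design. The plates stand for wells with 1 sorted cell each, and no doublet caller was run. Cells were clustered (Python 3.11.15, scanpy 1.11.5, leidenalg 0.10.2, anndata 0.12.19, pandas 2.3.3, numpy 2.4.6, matplotlib 3.10.9, scipy 1.17.1; 2000 variable genes, 30 components, 10 neighbours, Leiden resolution 1.5) into 26 clusters without the ribosomal protein genes, their pseudogenes or the lists. A cluster was named at 3 or more enriched markers and counted as neuronal at 40 neuron-marker transcripts per 10000, a threshold and a rule leaving 1 further cluster unnamed being set after seeing the data. The unnamed clusters held 79 cells and stayed out of the class tests.

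Counts were rounded, summed per plate and class (at least 5 cells a side, 10 for fasting) and tested with edgeR 4.0.16 (limma 3.58.1, R 4.3.3; filterByExpr, TMM, robust quasi-likelihood, Benjamini-Hochberg at 0.05), with plate as a block where both sides came from the same plates. Alternatives were plain totals, the sum of the 82 genes as library size, DESeq2 1.42.0, no filter, no block, each plate left out, thinning to 2000 transcripts and resolution 2.5. The script was tested on simulated data. Named genes were paralogs, the 5 highest and lowest, up to 4 called per direction and comparison, the gene nearest the median, the stalk and X-linked genes, up to 3 called per list and the 10 genes most like the sum; of those lists the text names only some. Some genes that the rule names are not reported here. Pericyte-like, ependymal-like, pars tuberalis-like and smooth muscle-like cells reached too few plates for a test.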

Additional observations from a re-analysis of the deposited data

Results flagged for a closer look

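Wells left out as too shallow or too rich in mitochondrial transcripts also held ribosomal protein transcripts, outside the main measurement: 1.59% of their transcripts (exact 95% interval 1.37 to 1.83) in 28 wells of fed plate 1, 1.10% (0.993 to 1.205) in 62 wells of fed plate 2, 0.929% (0.834 to 1.03) in 53 wells of fed plate 3 and 1.97% (1.84 to 2.11) in 114 wells of the fasted plate. On fed plates 2 and 3 these shares lay below those of the kept wells and on the fasted plate above, while on fed plate 1 the interval held the share of the kept wells, 1.65%.

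Rpl3 had log2 folds of opposite sign between classes on the fasted plate, and passed the test in AgRP-like neurons and tanycyte-like cells. Its log2 fold, fasted against fed, was 0.73 in AgRP-like neurons, 0.85 in the other neurons, 0.88 in tanycyte-like, 0.76 in endothelial-like and 1.14 in astrocyte-like cells, each above all fed plates. In VLMC-like cells it was -0.63, where 98.6 CPM on the fasted plate lay below all fed plates (130.3, 163 and 162 CPM). That fasted value came from 13 cells, in which 4 transcripts of Rpl23a amounted to 55.6 CPM, so it rests on few transcripts. The difference between classes was not tested. Rpl3 shares 85.6% of its windows with other genes, 26 pseudogenes among them, and the part of their reads was not tested.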

How the results depend on the processing

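Several counts of genes passing moved with the processing, and the cause was not tested. Scaled to the sum of the 82 genes, they became 8 (3 higher, 5 lower) for neurons, 1 for AgRP-like neurons, 6 for astrocyte-like, 4 for endothelial-like, 0 for oligodendrocyte-like, 2 (both higher) for oligodendrocyte precursor-like and 0 for microglia or macrophage-like cells, and for fasting 0 in other neurons, 1 in tanycyte-like, 0 in astrocyte-like and 1 in endothelial-like cells; Rpl22 (-0.0417), Rplp2 (-0.0306) and Rps4x (-0.0906) turned below 0 in AgRP-like neurons. Plain totals gave 14 for endothelial-like, 15 for oligodendrocyte-like, 9 for microglia or macrophage-like cells and 1 for fasting in endothelial-like cells. DESeq2 gave 17 for endothelial-like, 1 for oligodendrocyte-like and 17 for oligodendrocyte precursor-like cells, and for fasting 3 in AgRP-like neurons and 0 in other neurons, tanycyte-like and astrocyte-like cells. Without a filter there were 3 (1 higher, 2 lower) for tanycyte-like, 16 for endothelial-like and 9 for oligodendrocyte-like cells, and for fasting 3 in other neurons and 1 in tanycyte-like cells. Thinning gave 10 for AgRP-like neurons, 2 for tanycyte-like, 2 for endothelial-like, 1 for oligodendrocyte-like, 10 for oligodendrocyte precursor-like and 1 for microglia or macrophage-like cells, and 0 for fasting in AgRP-like neurons, other neurons and tanycyte-like cells; resolution 2.5 gave 10 for oligodendrocyte-like cells.

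Without the replicate block AgRP-like neurons had 11 and microglia or macrophage-like cells 11 genes, neurons 27; the block is the plate, shared by both sides. No paired analysis was possible because fasted and fed plates share only the number 1.

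Leaving out 1 plate at a time gave 27 to 52 for neurons, 27 to 47 for AgRP-like neurons, 1 to 2 for tanycyte-like, 42 to 45 for astrocyte-like, 15 to 30 for endothelial-like, 0 to 1 for VLMC-like, 0 to 6 for oligodendrocyte-like, 20 to 26 for oligodendrocyte precursor-like and 0 to 1 for microglia or macrophage-like cells, and for fasting 4 to 10 in AgRP-like neurons, 1 to 8 in other neurons, 1 to 5 in tanycyte-like, 0 to 1 in endothelial-like and 0 in VLMC-like cells. The share of transcripts became 0.947% for tanycyte-like cells, 1.76% for AgRP-like neurons and 1.01% for VLMC-like cells with mitochondrial genes in the total, and 1.28% for all kept cells as a mean over cells, against 1.48%. Classes with few cells, such as microglia or macrophage-like cells (29), limit what the depth can show.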
